A study of Mus musculus with 6 samples.

Results

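The genes described are the 9 enzymes of serine synthesis and folate one-carbon metabolism named Phgdh, Psat1, Psph, Shmt1, Mthfd1, Shmt2, Mthfd2, Mthfd1l and Aldh1l2, chosen by gene symbol from the 23399 genes of the deposited count table. All 9 were found and all 9 passed the filter on low counts, which left 14987 genes to test. The cells were CMT93, an established mouse colorectal carcinoma line of wildtype genotype, grown as spheroids on soft agar with a little Matrigel. In the palmitate group (3 libraries), sodium palmitate, a saturated fatty acid dissolved in ethanol and bound to albumin, was present at 200 µM. In the vehicle group (3 libraries), the same ethanol and albumin were given without the fatty acid. Both groups were treated for 1 week in monolayer and then for 5 days as spheroids. All libraries derive from 1 cell line. Replicates carry numbers, but nothing says that they were separate cultures, and the spread behind each p-value may therefore be technical.

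Libraries held 22516639 to 22852940 counts with palmitate and 18898896 to 21851987 with vehicle, so depth moved with the treatment. Of 10 epithelial markers listed, 9 were measured and each was above 1 CPM, the count scaled to library size. Their summed level was 6865 to 6962 CPM with palmitate and 7476 to 7553 CPM with vehicle, and Cdx2, a colon epithelial factor, averaged only 2.46 CPM with palmitate and 1.72 CPM with vehicle. The single markers went both ways by edgeR at an adjusted p under 0.05. Krt18 (log2 fold change -0.42), Krt8 (-0.24) and Cdh1 (-0.045) were lower with palmitate. Krt19 (0.13), Cldn7 (0.060) and Cdx2 (0.51) were higher, and Epcam, Vil1 and Lgals4 did not pass. The summed fibroblast markers (4 of 6 measured) reached at most 1.101 CPM with palmitate and 2.05 CPM with vehicle, and the summed endothelial markers (4 of 4 measured) 2.55 CPM with palmitate and 3.55 CPM with vehicle. Of the immune list, 2 of 5 genes were measured. Ptprc, which marks leukocytes, averaged 0.266 CPM with palmitate and 0.836 CPM with vehicle, and Cd68, a lysosomal gene not confined to leukocytes, averaged 9.66 CPM with palmitate and 7.14 CPM with vehicle. The part of depth and of these marker levels in the results was not tested, and in bulk RNA fewer cells of a type cannot be told apart from less RNA per cell.

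Cells make serine from the glycolytic intermediate 3-phosphoglycerate through the enzymes PHGDH, PSAT1 and PSPH. Serine hydroxymethyltransferases (SHMT1 in the cytosol, SHMT2 in mitochondria) then split serine into glycine and a single-carbon unit carried on tetrahydrofolate. In the mitochondrial arm MTHFD2 oxidises that unit and MTHFD1L releases it as formate, which leaves for the cytosol, where MTHFD1 loads it back onto folate for the synthesis of purines, thymidylate and methionine. The pathway is active in dividing cells, tumour cells among them, and several of its genes are known targets of the stress-induced factor ATF4.

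Spheroids grown with palmitate had slightly more message for Mthfd1, Mthfd2, Shmt2, Phgdh and Mthfd1l, and slightly less for Psat1. Psph, Shmt1 and Aldh1l2 did not pass the test. The greatest rise was that of Mthfd1, 1.16-fold, and Psat1 fell to 0.929 times its vehicle level. By edgeR's quasi-likelihood test at an adjusted p under 0.05, 5 of 9 members were higher, against 27.4% of all tested genes, and 1 was lower, against 25.4%. In either direction 6 of 9 were called, against 52.8% of all tested genes. The libraries of the groups did not overlap for the same 6 members, against 57.8% of tested genes; 5 lay above (29.7% of tested genes) and 1 below (28.1%). The median log2 fold change of the 9 was 0.088, and that of all tested genes was 0.00068. Each called member changed by less than the median called gene, whose absolute log2 fold change was 0.25. Over all tested genes that median was 0.155. Mthfd1 (0.219), Mthfd2 (0.177) and Shmt2 (0.159) lay above it, and the other called members below it. Against a minimum fold of 1.2, glmTreat of edgeR called 0 of 9 (0 at an unadjusted p under 0.05), and 15.2% of tested genes passed. All 9 estimates lay inside that fold, so the lack of calls follows from their size and is no separate result.

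**Figure D1:**
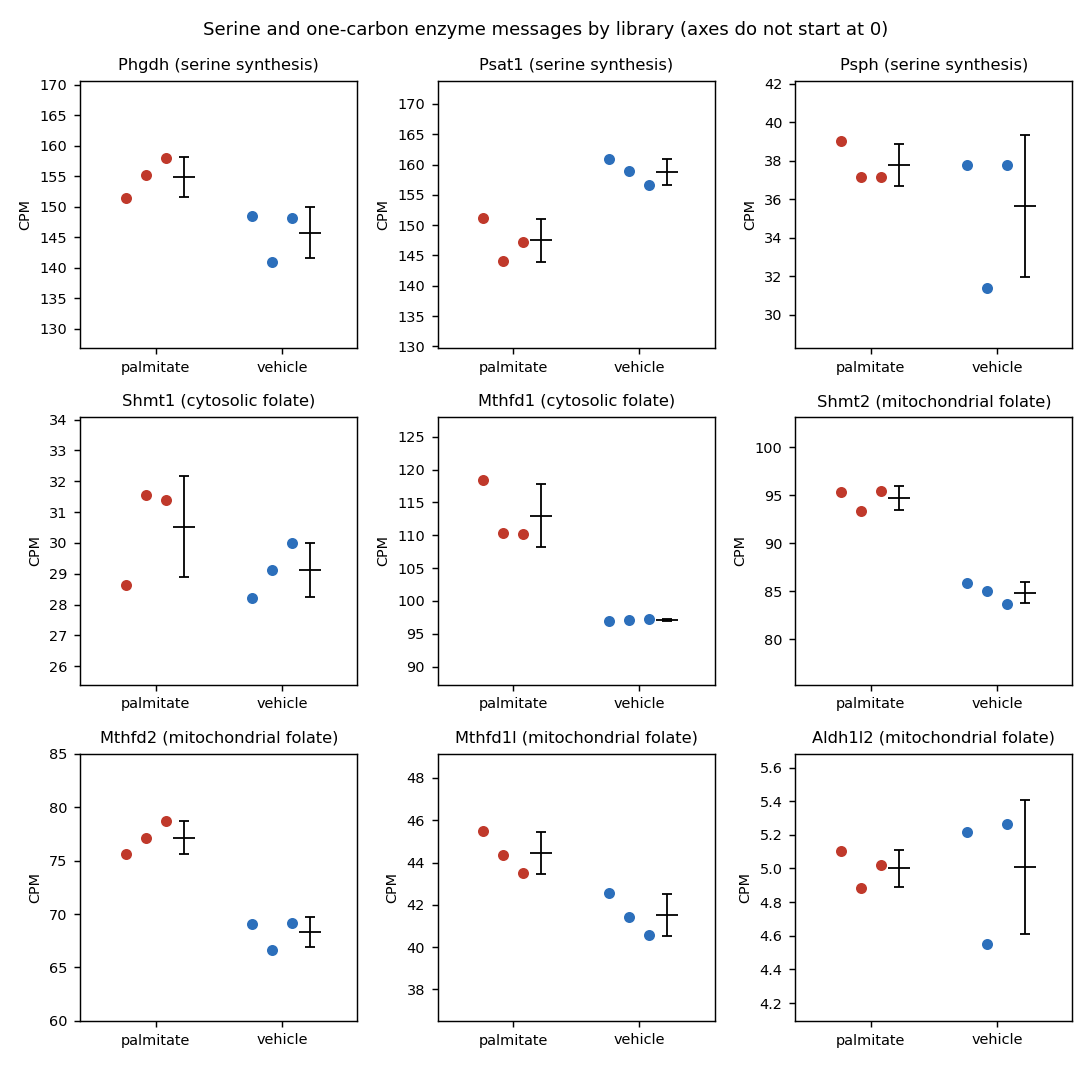
Level of each enzyme message in CPM (vertical axes, which do not start at 0) in the 3 palmitate libraries (left, red) and the 3 vehicle libraries (right, blue), with the mean and SD in black. Shmt2, Mthfd2, Mthfd1, Phgdh and Mthfd1l lie higher in every palmitate library, Psat1 lies lower, and Psph, Shmt1 and Aldh1l2 overlap.

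RefSeq promoter windows (300 bases around a start, mostly before it, GRCm38.p6) were at hand for 8 of the 9 genes, with 9 windows, since Psat1 has a second start. The windows printed were picked by the changes seen in these data: the first 3 belong to the genes with the greatest rises and the last to the gene that fell. Each run gives the 200 bases before the RefSeq start on the gene's own strand, and capitals mark CCAAT, the box recognised by the factor NF-Y, or ATTGG where it lies on the opposite strand. For Mthfd1, unlike the other printed genes, the bases just after this start were not found in a GENCODE transcript of the gene. The stretches are chr12:76255032-76255231 (plus strand) for Mthfd1, chr6:83317605-83317804 (minus) for Mthfd2, chr10:127522445-127522644 (minus) for Shmt2 and chr19:15925060-15925259 (minus) for Psat1.
Mthfd1: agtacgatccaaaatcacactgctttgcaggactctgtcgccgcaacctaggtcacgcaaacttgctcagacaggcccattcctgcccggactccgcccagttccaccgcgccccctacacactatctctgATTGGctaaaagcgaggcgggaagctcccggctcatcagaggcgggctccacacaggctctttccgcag
Mthfd2: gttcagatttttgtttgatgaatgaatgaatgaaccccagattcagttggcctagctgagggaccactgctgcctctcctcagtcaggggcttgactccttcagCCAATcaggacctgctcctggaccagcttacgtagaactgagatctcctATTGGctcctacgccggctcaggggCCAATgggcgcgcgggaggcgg
Shmt2: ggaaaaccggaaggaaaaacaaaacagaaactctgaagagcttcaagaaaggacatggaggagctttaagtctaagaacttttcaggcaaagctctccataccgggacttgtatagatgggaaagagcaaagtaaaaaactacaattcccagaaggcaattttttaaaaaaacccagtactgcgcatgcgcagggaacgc
Psat1: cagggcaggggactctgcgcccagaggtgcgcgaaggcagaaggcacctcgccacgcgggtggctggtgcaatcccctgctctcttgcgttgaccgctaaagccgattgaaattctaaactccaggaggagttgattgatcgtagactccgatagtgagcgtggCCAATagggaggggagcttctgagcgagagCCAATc
CCAAT was found on either strand in the 300-base windows of 6 of 8 member genes (Phgdh, Psat1, Psph, Shmt1, Mthfd1 and Mthfd2), and in 41.1% of 27025 genes with a window. Mthfd2 held 3 copies within 100 bases of its start, at -96, -47 and -22 for the first base of each. The Shmt2 and Mthfd1l windows held none, and neither did the window of the other Psat1 start, which is not printed. TGATGNAA, a short form of the element bound by ATF4 with C/EBP factors, was in 0 of the 8, against 4.51% of genes, and the E-box CACGTG, a motif of MYC family factors, in 0 of the 8, against 8.09%. Both strands were searched, and no matches overlapped in the member windows, where only CCAAT was found. A match or its lack in this window is a description only, and no link between a motif and a change was tested.

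Serine synthesis had a rise at its first step and a fall at its second. Phgdh (ENSMUSG00000053398.12, chromosome 3), the dehydrogenase that commits 3-phosphoglycerate to serine, had 152, 155 and 158 CPM with palmitate, against 149, 141 and 148 CPM with vehicle. All palmitate libraries were above all vehicle libraries, by a margin smaller than the spread within either group. The means were 155 ± 3.24 CPM with palmitate and 146 ± 4.25 CPM with vehicle (SD, n = 3 each). The log2 fold change was 0.088 (SE 0.024, edgeR adjusted p = 0.00112). Without vehicle replicate 2, the lowest library, it was 0.062 and the call held narrowly (adjusted p = 0.0451, edgeR). The annotation lists a processed pseudogene of Phgdh, with which it may share reads.

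Psat1 (ENSMUSG00000024640.10, chromosome 19), the aminotransferase that follows, had 151, 144 and 147 CPM with palmitate, against 161, 159 and 157 CPM with vehicle. Here every palmitate library was below every vehicle library. The means were 148 ± 3.59 CPM with palmitate and 159 ± 2.14 CPM with vehicle (SD, n = 3 each; edgeR adjusted p = 7.16e-05, log2 fold change -0.11 with SE 0.023). It was the only member to fall, and its call held without each single library.

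Psph (ENSMUSG00000029446.15, chromosome 5), the phosphatase that releases serine, had 39.0, 37.1 and 37.2 CPM with palmitate, against 37.8, 31.4 and 37.8 CPM with vehicle. The groups overlapped, and vehicle replicate 2 stood below the other 5 libraries. The log2 fold change was 0.088 (SE 0.049, adjusted p = 0.126, edgeR), with a 95% interval of -0.0074 to 0.18. Without vehicle replicate 2 it was -0.0009, and without vehicle replicate 1 or 3 it was 0.13 and 0.14 and passed the threshold (adjusted p = 0.0429 and 0.0203, edgeR), so this value rests on 1 library.

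In the cytosolic folate arm, Mthfd1 rose and Shmt1 did not pass the test. Mthfd1 (ENSMUSG00000021048.8, chromosome 12), which joins formate to tetrahydrofolate and interconverts the products, had 119, 110 and 110 CPM with palmitate, against 97.0, 97.1 and 97.3 CPM with vehicle. The vehicle libraries were nearly equal and every palmitate library was above them. At 1841 to 2134 counts that vehicle spread is below counting error, so the vehicle SD is no measure of precision. The means were 113 ± 4.75 CPM with palmitate and 97.1 ± 0.150 CPM with vehicle (SD, n = 3 each; edgeR adjusted p = 1.36e-10, log2 fold change 0.22 with SE 0.028). Shmt1 (ENSMUSG00000020534.15, chromosome 11) had 28.6, 31.6 and 31.4 CPM with palmitate, against 28.2, 29.1 and 30.0 CPM with vehicle. These groups overlapped through palmitate replicate 1, and the log2 fold change of 0.067 (SE 0.048, adjusted p = 0.249, edgeR) had a 95% interval of -0.028 to 0.16. Without palmitate replicate 1 it was 0.11 (adjusted p = 0.0650, edgeR).

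In the mitochondrial arm, 3 of 4 enzymes were called higher, against 27.4% of all tested genes. The call of Mthfd1l among them was lost in 6 of 13 alternatives. Shmt2 (ENSMUSG00000025403.6, chromosome 10), which feeds serine carbon into the mitochondrial folate pool, had 95.4, 93.3 and 95.5 CPM with palmitate, against 85.8, 85.0 and 83.6 CPM with vehicle. The gap between the groups exceeded the range within each. The means were 94.7 ± 1.21 CPM with palmitate and 84.8 ± 1.12 CPM with vehicle (SD, n = 3 each; edgeR adjusted p = 2.08e-06, log2 fold change 0.16 with SE 0.029).

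Mthfd2 (ENSMUSG00000005667.9, chromosome 6), the dehydrogenase and cyclohydrolase of this arm, had 75.7, 77.1 and 78.7 CPM with palmitate, against 69.0, 66.7 and 69.2 CPM with vehicle. The means were 77.2 ± 1.54 CPM with palmitate and 68.3 ± 1.43 CPM with vehicle (SD, n = 3 each; edgeR adjusted p = 2.00e-06, log2 fold change 0.18 with SE 0.032). Every palmitate library was again above every vehicle library.

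Mthfd1l (ENSMUSG00000040675.18, chromosome 10), the synthetase that releases formate, had 45.5, 44.4 and 43.5 CPM with palmitate, against 42.6, 41.4 and 40.6 CPM with vehicle. The groups were separate but close, with a log2 fold change of 0.10 (SE 0.040, adjusted p = 0.0303, edgeR). The call was lost with DESeq2 (adjusted p = 0.164), after thinning all libraries to the smallest (adjusted p = 0.0982, edgeR), and without palmitate replicate 1, vehicle replicate 2 or vehicle replicate 3 (adjusted p = 0.104, 0.0707 and 0.132, edgeR).

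Aldh1l2 (ENSMUSG00000020256.15, chromosome 10), which burns formyl-folate to carbon dioxide with the production of NADPH, was the least abundant member. It had 5.10, 4.88 and 5.02 CPM with palmitate, against 5.21, 4.55 and 5.26 CPM with vehicle, and the palmitate libraries lay inside the vehicle range. The log2 fold change was 0.0008 (SE 0.12, adjusted p = 0.996, edgeR), and its 95% interval of -0.22 to 0.23 is wider than the changes of the other members. Its libraries held 99 to 114 counts for this gene, so a change as small as that of Mthfd1 was not detectable at this depth.

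**Figure D2:**
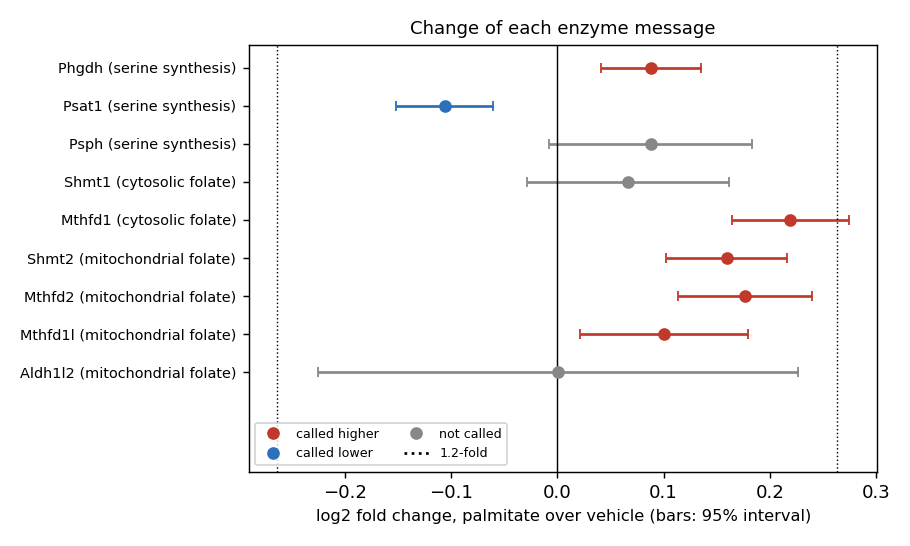
Log2 fold change of each enzyme message, palmitate over vehicle (horizontal axis), by enzyme, with bars for the 95% interval; red marks genes called higher, blue lower and grey not called, and dotted lines stand at a 1.2-fold change. All 9 points lie inside the dotted lines, Psat1 alone left of 0 with its whole interval.

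The contrast between compartments was examined with ratios of 2 messages within each library, as counts per exon length, which need no scaling between libraries. The median log2 fold change was 0.13 over the 4 mitochondrial enzymes and 0.14 over the 2 cytosolic folate enzymes. Shmt2 over Shmt1 was 3.88 ± 0.244 with palmitate and 3.64 ± 0.158 with vehicle (SD, n = 3 each), and the groups overlapped (log2 difference 0.091, exact two-sided permutation p = 0.3). Mthfd2 over Mthfd1 was 0.871 ± 0.0511 with palmitate and 0.896 ± 0.0186 with vehicle (SD, n = 3 each), also overlapping (log2 difference -0.043, exact two-sided permutation p = 0.7).

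Mthfd1l over Mthfd1 was the ratio that separated the groups, with 0.384, 0.402 and 0.395 with palmitate, against 0.440, 0.427 and 0.418 with vehicle. Every palmitate library had a lower ratio than every vehicle library (log2 difference -0.12, SE 0.029, exact two-sided permutation p = 0.1). Within the mitochondrial arm, Mthfd2 over Mthfd1l (log2 difference 0.077, exact permutation p = 0.2) and Aldh1l2 over Mthfd1l (log2 difference -0.099, exact permutation p = 0.4) overlapped between groups. With 3 libraries against 3 the smallest possible p is 0.1, so none of the 5 ratios could pass 0.05, and the lowest adjusted value over the 5 was 0.5 (Benjamini-Hochberg). No difference between the mitochondrial and cytosolic arms was shown.

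**Figure D3:**
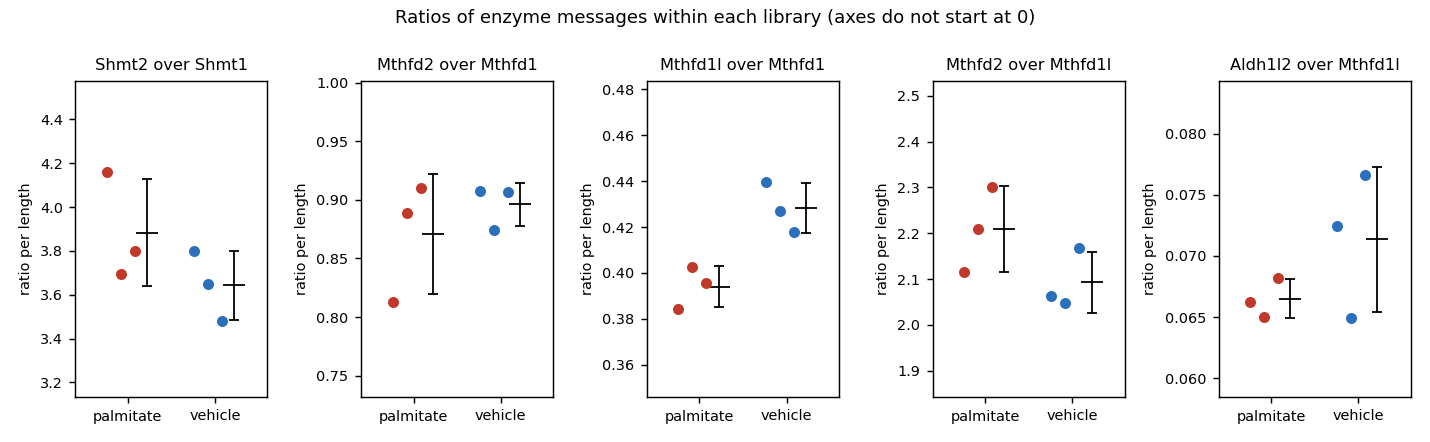
Ratio of the messages of 2 enzymes, as counts per exon length (vertical axes, which do not start at 0), in the 3 palmitate libraries (left, red) and 3 vehicle libraries (right, blue), with the mean and SD in black. Mthfd1l over Mthfd1 is lower in each palmitate library than in each vehicle library, and the other 4 ratios overlap.

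Levels per exon length placed the enzymes in the same order in both groups. In CPM per kilobase, Phgdh stood at 62.3 with palmitate and 58.7 with vehicle, Psat1 at 34.7 with palmitate and 37.3 with vehicle, and Shmt2 at 30.5 with palmitate and 27.3 with vehicle. Mthfd1 (25.4 with palmitate, 21.9 with vehicle) and Mthfd2 (22.1 with palmitate, 19.6 with vehicle) followed. Mthfd1l, Psph and Shmt1 lay between 7.86 and 10.0 CPM per kilobase with palmitate and between 7.50 and 9.36 with vehicle, and Aldh1l2 stood at 0.667 with palmitate and 0.668 with vehicle. Neighbours in this order were separate in all libraries of a group except Psph and Shmt1, which overlapped with vehicle. Lengths are unions of annotated exons of an earlier annotation, so close neighbours in the order depend on them.

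Among the other folate genes, a relative of Aldh1l2 and one of Mthfd2 fell. Aldh1l1, the cytosolic counterpart of Aldh1l2, fell to 20.03 ± 0.538 CPM with palmitate, against 33.9 ± 1.48 CPM with vehicle (SD, n = 3 each; edgeR adjusted p = 1.23e-23, log2 fold change -0.76 with SE 0.051). Mthfd2l, a mitochondrial relative of Mthfd2, fell to 49.7 ± 0.990 CPM with palmitate, against 55.7 ± 1.76 CPM with vehicle (SD, n = 3 each; edgeR adjusted p = 9.24e-05, log2 fold change -0.17 with SE 0.037). Mthfd2 over Mthfd2l, per exon length, was 2.97, 2.92 and 2.99 with palmitate, against 2.45, 2.26 and 2.31 with vehicle. Aldh1l2 over Aldh1l1 was 0.155, 0.142 and 0.154 with palmitate, against 0.0944, 0.0769 and 0.0962 with vehicle. Both ratios were higher in each palmitate library, and both pairs were chosen after their values were seen and are given without a test.

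In the cytosolic folate cycle outside the 9 enzymes, 7 of 8 listed genes were tested, 1 was higher, 1 lower (Aldh1l1) and 5 not called. Over all tested genes, 27.4% were higher and 25.4% lower, and the other list counts of this paragraph stand beside the same shares. Tyms, thymidylate synthase, averaged 115 CPM in both groups (log2 fold change -0.0048, adjusted p = 0.895, edgeR). Of 7 tested genes of the other mitochondrial one-carbon list, 2 were higher and 3 lower. The mitochondrial serine carrier Sfxn1 rose (0.097 on the log2 scale) and its relative Sfxn3 fell (-0.24), as did the folate carrier Slc25a32 (-0.12) and Mthfd2l. The call of Sfxn1 was lost without vehicle replicate 3, and that of Slc25a32 with DESeq2, among other settings. The formyltransferase gene Mtfmt (0.12) was near the threshold (adjusted p = 0.0489, edgeR) and lost its call in 10 of 13 alternatives, so that neither higher call of this list held without vehicle replicate 3. For folate uptake and retention, 1 of 4 tested genes was higher and 1 lower: Slc46a1, the proton-coupled folate transporter, rose to 13.6 ± 0.329 CPM with palmitate, against 9.50 ± 0.239 CPM with vehicle, and Ggh, which trims folate polyglutamates, fell (-0.17).

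The counts that follow stand beside 27.4% higher and 25.4% lower over all tested genes. Of the serine and glycine transporters, 3 of 5 tested were higher and 2 lower. Of the 3 higher, Slc38a2 (log2 fold change 0.045) and the glycine transporter Slc6a9 (0.091) lost their calls without vehicle replicate 3 (adjusted p = 0.125 and 0.0510, edgeR), which left Slc1a4, and Slc6a9 also lost its call with DESeq2 (adjusted p = 0.0665). Slc1a4 rose to 99.7 ± 3.395 CPM with palmitate, against 76.4 ± 0.489 CPM with vehicle, while its close relative Slc1a5, which favours glutamine, fell to 123 ± 1.16 CPM with palmitate, against 162 ± 4.56 CPM with vehicle. Of the genes that use or break down serine, 3 of 11 tested were higher and 3 lower, shares close to those over all tested genes. Of the 3 lower, Sptssa (-0.096) and Serinc3 (-0.057) each lost the call in 6 of 13 alternatives. Both lost it without palmitate replicate 3 (adjusted p = 0.126 and 0.0936, edgeR) and with DESeq2 (adjusted p = 0.163 and 0.156), which left Sptssb. Sptlc2, the catalytic subunit that condenses serine with palmitoyl-CoA, rose (log2 fold change 0.22), as did serine racemase Srr (0.22), and the small subunit Sptssb fell (-2.39). Among genes around glycine, 2 of 8 tested were higher and 1 lower. Gatm, which uses glycine for creatine synthesis, rose to 6.73 ± 0.583 CPM with palmitate, against 2.14 ± 0.400 CPM with vehicle (SD, n = 3 each; edgeR adjusted p = 8.68e-19, log2 fold change 1.65 with SE 0.14). Dld, shared by the glycine cleavage system and other dehydrogenases, rose (0.27), while Gldc, the decarboxylase particular to glycine cleavage, had 3.27 CPM with palmitate and 3.32 CPM with vehicle.

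In the methionine cycle and transsulfuration, 2 of 9 tested genes were higher and 3 lower. Ahcy, which clears S-adenosylhomocysteine, rose (log2 fold change 0.18), and so did Mat2b (0.21), whereas the methionine adenosyltransferase Mat2a (-0.076) and the transsulfuration enzyme Cth (-0.49) fell. The third lower gene, Ahcyl1 (-0.045), lost its call in 7 of 13 alternatives. Without vehicle replicate 1 the calls of both Cth and Ahcyl1 were lost (adjusted p = 0.0549 and 0.118, edgeR), which left Mat2a. Of glycolytic genes around 3-phosphoglycerate, 6 of 7 tested were higher and none lower (edgeR), with a median log2 fold change of 0.13, and those with the smallest p were Gapdh (0.20), Pgam1 (0.22), Bpgm (0.33) and Pkm (0.10). Gapdh has many processed copies that can share reads. Of regulators of the pathway, 3 of 8 were higher and 1 lower. Atf4 rose to 279 ± 7.82 CPM with palmitate, against 239 ± 5.49 CPM with vehicle (log2 fold change 0.23), Nfe2l2, the gene of NRF2, rose (0.19), and Mycn rose to 27.7 ± 1.78 CPM with palmitate, against 15.3 ± 0.302 CPM with vehicle (0.86). Myc had a log2 fold change of -0.089, with a call that was lost in 7 of 13 alternatives. Over all 9 lists, 23 of 66 tested genes were higher and 15 lower, with a median log2 fold change of 0.037, beside 27.4% higher and 25.4% lower and a median of 0.00068 over all tested genes.

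**Figure D4:**
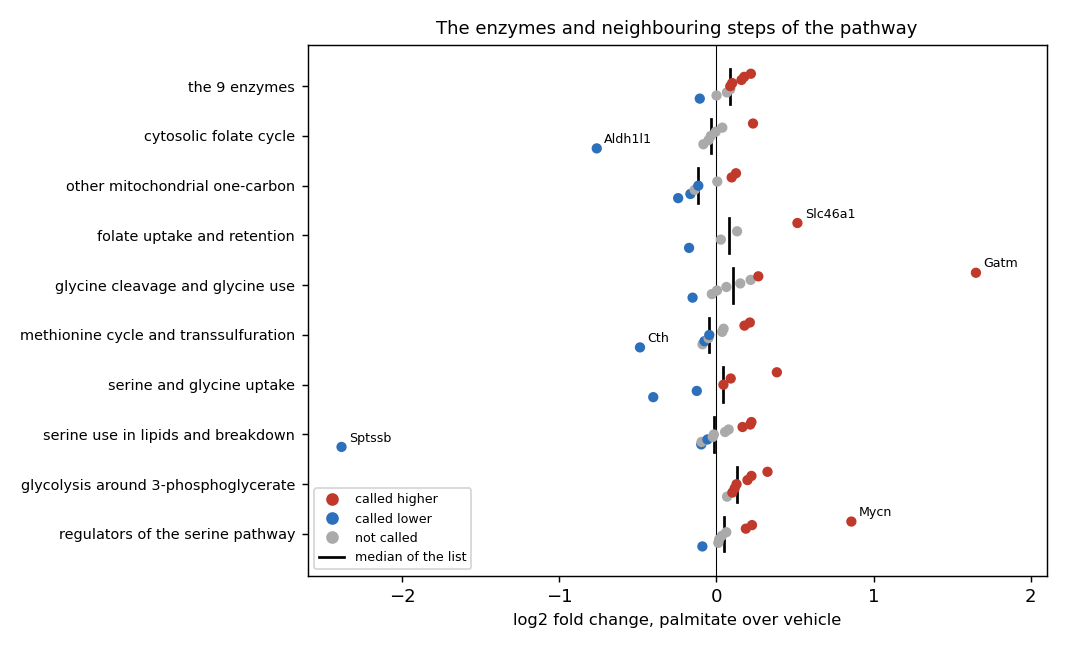
Log2 fold change, palmitate over vehicle (horizontal axis), of the 9 enzymes (top row) and of each gene in the lists of neighbouring steps (rows below), in red where called higher, blue where called lower and grey where not called; black bars are list medians. The 9 enzymes lie between -0.11 and 0.22, while Gatm, Mycn and Slc46a1 rose and Sptssb, Aldh1l1 and Cth fell by more.

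The profiles of Shmt2, Mthfd2 and Phgdh over the 6 libraries were each compared with those of 9676 genes of at least 10 CPM, as the root mean square difference of centred log2 CPM. Shmt2 was nearest to Get3 (0.0039), Ncbp3 (0.0075) and Mcm2 (0.0079), Mthfd2 to Jak3 (0.013), Gpatch8 (0.013) and Tmem98 (0.014), and Phgdh to Mgst3 (0.010), Sufu (0.012) and Pacsin2 (0.012). Such closeness was common: 1633, 1270 and 1743 genes lay within 0.05 of Shmt2, Mthfd2 and Phgdh. Among the 9 enzymes themselves, Shmt2 and Mthfd2 were the closest pair (0.031) and Psat1 and Mthfd1 the farthest apart (0.16).

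In the authors' deposited table of DESeq2 results, 5 of the 9 enzymes had a q-value under 0.05. The share of all genes under that q-value in the authors' table was not counted. The DESeq2 fit made here took all 23399 genes of the count table, without the filter on low counts. It called 5 of the 9 and 5692 genes in all, a count that is not a share of the 14987 genes tested by edgeR. In the authors' deposited table, the log2 fold changes were 0.22 for Mthfd1, 0.18 for Mthfd2, 0.16 for Shmt2, 0.091 for Phgdh and -0.10 for Psat1, and Mthfd1l had 0.10 with a q-value of 0.168. The authors' deposited gene set table gave a normalised enrichment score of 1.32 for glycine, serine and threonine metabolism (q-value 0.462), with Phgdh and Shmt2 among its leading genes. In that authors' deposited table the folate one-carbon pool scored -0.82 (q-value 0.801), with none of the 9 enzymes among its leading genes.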

How the data were processed

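Messenger RNA of 6 spheroid samples was sequenced with strand marking, per the labels. The submitters' processing notes name STAR 2.6.1 and HTSeq, then DESeq2 1.34.0 and FastQC 0.11.8, and build mm39. A strand setting for the counting is not stated in the labels. The deposited table holds raw counts per gene. The authors' deposited gene table gives log2 fold changes, p-values and q-values, and a signed score from the p-value, per the column description; their gene set table gives enrichment scores with p-values and q-values.

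Groups came from the sample labels. All 6 libraries entered 1 fit in edgeR 4.0.16 under R 4.3.3 (TMM, filterByExpr with a minimum count of 10, robust glmQLFit, glmQLFTest, two-sided), adjusted by Benjamini-Hochberg over 14987 genes at 0.05. CPM are TMM-normalised. The standard error is the log2 fold change over the root of its F, and 95% intervals are normal. Exon lengths are unions of GENCODE M21 exons (GRCm38). The comparison was checked on simulated counts in which few genes were changed. That check required recovery only of changes larger than those of the 9 enzymes. Libraries of a group differed by more than counting noise (chi-square over its degrees of freedom 1.20 to 1.38, genes of at least 20 summed counts). The excess was small: edgeR's common coefficient of variation beyond counting noise was 1.28%, and the p-values rest on that spread. Alternatives were DESeq2 1.42.0, median-of-ratios size factors, no filter, limma-voom (limma 3.58.1), glmTreat at 1.2-fold, a replicate block, thinning and leaving out each library. A call lost under glmTreat counts in the tallies over 13 alternatives. All 9 enzymes were named; in each list, up to 4 called genes in each direction by smallest p could be named. A result for 1 list gene is not reported here. Tyms, Gldc, Cdx2 and the ratios to Mthfd2l and Aldh1l1 were chosen after values were seen. The members and lists were chosen with earlier results of these data known. Figures used matplotlib 3.10.9. With 18898896 to 22852940 counts per library, counting error is largest for genes near 1 CPM.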

Additional observations from a re-analysis of the deposited data

How the results depend on the processing

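Of the 9 enzymes, 6 were called in the main fit (5 higher, 1 lower), 6 with limma-voom and 5 with DESeq2. With a minimum fold of 1.2 (glmTreat), 0 were called (0 higher, 0 lower), since all 9 estimates lay inside that fold. In the lists 7 genes were then called (4 higher, 3 lower) against 38, and 2275 genes in all against 7915. Leaving out each library gave 5 to 7 called enzymes (4 to 6 higher, 1 lower), 32 to 37 called list genes (20 to 23 higher, 11 to 14 lower) and 7260 to 7406 called genes. Ratio differences then spanned 0.041 to 0.13 for Shmt2 over Shmt1, -0.075 to 0.0060 for Mthfd2 over Mthfd1 (positive without palmitate replicate 1), -0.14 to -0.10 for Mthfd1l over Mthfd1, 0.047 to 0.11 for Mthfd2 over Mthfd1l and -0.16 to -0.045 for Aldh1l2 over Mthfd1l. Uncalled values near 0 changed sign. Aldh1l2 had -0.0026 with median-of-ratios size factors, -0.0012 with the replicate block, and -0.0108 and -0.0686 without palmitate replicate 1 and vehicle replicate 2 (leave-one-out range -0.0686 to 0.0404). Tyms had 0.0047 with no filter, 0.0044 after thinning, and 0.0173 and 0.0039 without palmitate replicate 2 and vehicle replicate 2 (leave-one-out range -0.0202 to 0.0173), and Psph had -0.0009 without vehicle replicate 2. The cause was not tested. Same-numbered libraries did not deviate together (correlations -0.0045, 0.0085 and 0.0071). What a replicate number shares is not stated in the labels. With the replicate block 6 enzymes, 37 list genes and 7933 genes were called. For the paired ratios the smallest p that 3 pairs allow is 0.25, so that test could not pass the threshold.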
